A study of Mus musculus with 6 samples.

Results

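Aminoacyl-tRNA synthetases are the enzymes that attach each amino acid to its tRNA. The 36 genes described here are 20 synthetases of the cytosol and 16 of the mitochondrion, the latter with symbols ending in 2. They were selected by symbol, and each matched 1 of the 41921 rows of the count table. All 36 passed the filter on low counts, in a test that covered 13158 rows.

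RNA was sequenced from RAW264.7, a wild-type mouse monocyte/macrophage line that RANKL, a TNF-family cytokine, can drive towards osteoclasts. The protocol text of all 6 samples names osteoclast differentiation with RANKL at 50 ng/mL, begun in cells 3 days past confluence. By their labels, 3 samples form a RANKL group and 3 an albiflorin group, albiflorin being a monoterpene glycoside from peony root. The sources used here do not give its dose or duration, and no untreated sample was analysed here. Whether the albiflorin cells received RANKL as well is stated only by the protocol text that all samples share. The samples are cultures of 1 cell line, and nothing says that replicates were separate cultures, so p-values cover only the spread among the 6 libraries, part of which may be technical.

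A synthetase activates its amino acid with ATP and transfers it to the matching tRNA, and several enzymes of the cytosol are held together in a multi-synthetase complex on the scaffold proteins Aimp1, Aimp2 and Eef1e1. Mitochondria translate their own small set of mRNAs with a separate set of synthetases, which are encoded in the nucleus and imported. When charging fails, uncharged tRNA activates the kinase GCN2 (Eif2ak4), eIF2 is phosphorylated, and translation of the transcription factor ATF4 rises. ATF4 binds amino acid response elements and is known to activate several genes of cytosolic synthetases.

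Total counts per library ran from 13673284 to 15489482. The macrophage genes Csf1r (1660 to 1980 normalised read counts, CPM) and Cd68 (648 to 829 CPM) were expressed in every library, whereas the integrin gene Itgam reached at most 0.0734 CPM. Of the osteoclast genes, Acp5 lay between 20.9 and 29.7 CPM, Ctsk was under 1 CPM in every library and Calcr had no counts. Summed markers of fibroblasts or osteoblasts, of lymphocytes and of epithelial cells reached at most 4.21, 0.659 and 0.141 CPM. Across 10469 tested genes with an mRNA length, the log2 fold change fell with mRNA length (Spearman rho = -0.62, a description across genes of the same 6 libraries). For this reason results are also given with each library's trend on length removed, either on the gene length listed in the deposited table or on the length of the principal mRNA. Some markers moved between groups. Of 6 tested macrophage markers Tyrobp (log2 fold change 0.41) and Fcer1g (0.30) rose and Adgre1 fell (-0.30), and of 5 tested osteoclast markers Acp5 rose (0.29), by edgeR (adjusted p = 0.0022, 0.00664, 0.00933 and 0.0371). With either length trend removed, only Adgre1 of these 4 passed. The summed macrophage markers were 3445 to 3656 CPM with RANKL and 3475 to 3591 CPM with albiflorin, and the summed osteoclast markers 53.1 to 59.5 and 61.5 to 71.02 CPM. The part of these shifts in the results that follow was not tested.

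RefSeq promoter windows (GRCm38.p6, 250 bases before to 50 after the start) were found for 27 of the 36 genes. The core of the amino acid response element, searched as TGATGNAAN on both strands, occurred in 5 of 13 cytosolic genes and in 0 of 14 mitochondrial genes. By comparison, 3.95% of all 32851 windows of this length hold it. The E-box CACGTG, a palindrome that Myc-family factors bind, occurred in Aars, Farsb, Iars and Tars of the same 13 and in Ears2 of the 14, against 7.15% of all windows. The 5 stretches below are shown because they are the only member promoters with the response element core. Each is written 5′ to 3′ along the strand of its gene with the motif in capitals, and the Aars stretch carries the E-box first and the response element core after it.
Aars (chr8:111033686-111033747, plus strand): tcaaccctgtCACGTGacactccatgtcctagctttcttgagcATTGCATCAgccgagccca
Gars (chr6:55037960-55037988, plus strand): tggctgcgctATTTCATCAtgcaccgggc
Iars (chr13:49682126-49682154, plus strand): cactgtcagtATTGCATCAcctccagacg
Tars (chr15:11399656-11399684, minus strand): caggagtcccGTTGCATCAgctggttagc
Yars (chr4:129189896-129189924, plus strand): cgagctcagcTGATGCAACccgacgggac
The core begins 113 bases before the start in Aars, 31 before it in Gars and 16 before it in Tars. It lies 7 bases after the start in Iars and 4 bases after it in Yars. Aars holds another match 9 bases after its start. In Aars, Gars, Iars and Tars the core reads on the opposite strand, so the capitals show its complement. A match is a run of letters and not evidence of binding.

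Cytosolic synthetase mRNAs were far more abundant than mitochondrial ones. On a scale that allows genes to be compared, CPM per kilobase of principal mRNA averaged over the 6 libraries, the cytosolic median was 67.9 (range 38.7 to 167) and the mitochondrial median was 9.99 (range 3.93 to 45.5). The most abundant were Sars, which makes seryl-tRNA, at 167, and Nars, which makes asparaginyl-tRNA, at 159. Eprs, a fused enzyme for glutamate and proline, followed at 120.4, then Vars (valine) at 115, Gars (glycine) at 114 and Rars (arginine) at 105. Sars and Nars overlapped between libraries, and so did Eprs, Vars and Gars, so these neighbours are not separated by their spread. Mars2 (methionine) was lowest at 3.93, with Wars2 at 5.78, Aars2 at 5.83, Nars2 at 5.91 and Pars2 at 5.98 just above it. This low end also depends on length. By the FPKM of the authors Nars2 was lowest at 3.19, then Mars2 at 3.91 and Ears2 at 3.94. In CPM, without division by length, Mars2 averaged 44.4 against a mitochondrial median of 29.9.

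**Figure D1:**
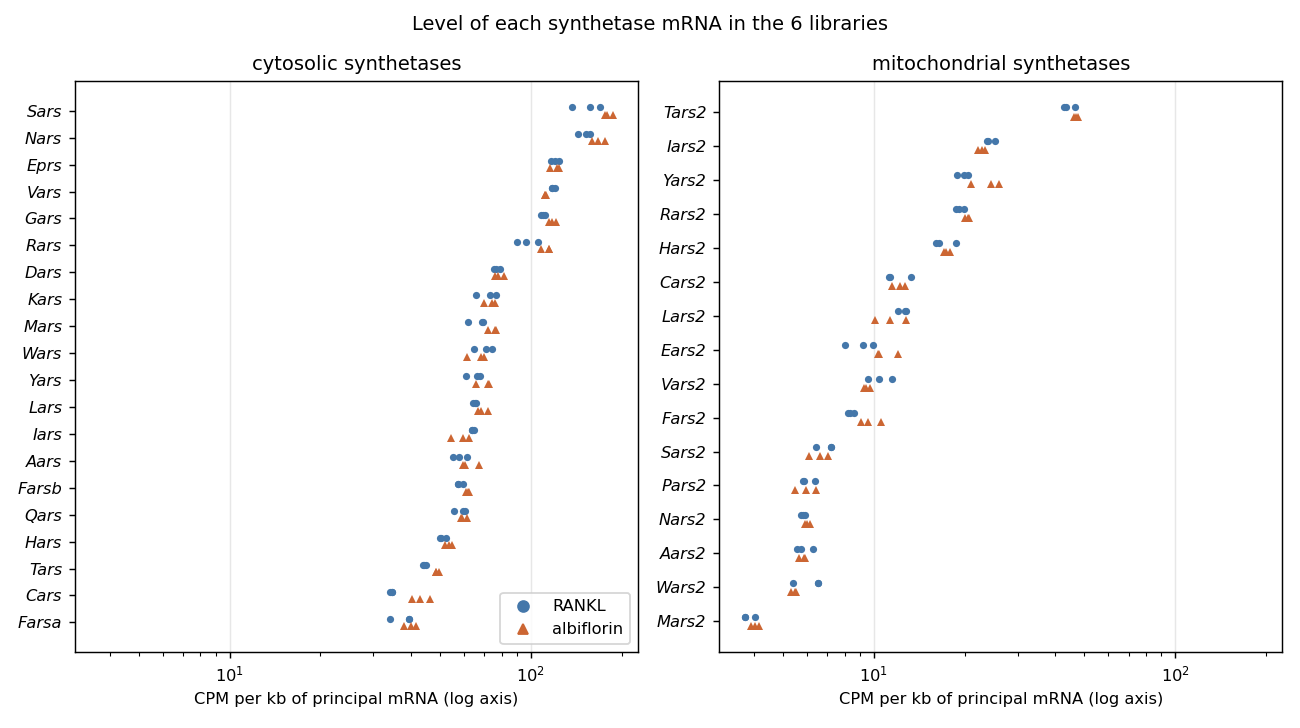
Level of each of the 36 synthetase mRNAs, as CPM per kilobase of principal mRNA on a log axis, with 1 point per library (circles RANKL, triangles albiflorin). Cytosolic genes lie between 38.7 and 167 on average and mitochondrial genes between 3.93 and 45.5, with Tars2 the only mitochondrial gene inside the cytosolic range.

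Per kilobase of mRNA the highest mitochondrial gene was Tars2, the threonine enzyme, at 45.5, followed by Iars2 at 23.5 and Yars2 at 21.8. By the authors' FPKM the order was Yars2 at 19.9, Tars2 at 15.7 and Iars2 at 14.4. Within the 17 pairs that charge the same amino acid, the cytosolic member was the more abundant in 17 by mRNA length and in 17 by the authors' FPKM. The per-kilobase ratio ran from 1.02 for Tars over Tars2 to 27.0 for Nars over Nars2, with a median of 6.61. By FPKM the range was 1.23 for Farsa over Fars2 to 51.8 for Nars over Nars2, and Tars exceeded Tars2 4.49-fold. The order of levels depends on the length used: Eprs is listed with 18013 bases in the deposited table and has a principal mRNA of 4906 bases, and it ranked 3 per kilobase of mRNA but 17 by FPKM.

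Albiflorin libraries held slightly more cytosolic synthetase mRNA than RANKL libraries, while the mitochondrial sums overlapped. The summed cytosolic level was 5114, 4765 and 4971 CPM in the RANKL libraries and 5378, 5157 and 5174 CPM in the albiflorin libraries, 4950.2 ± 175 against 5236 ± 123 (SD, n = 3). The groups did not overlap, and the means differed 1.06-fold. The mitochondrial sum was 657, 642.5 and 667 CPM with RANKL and 662, 658 and 661 CPM with albiflorin (655 ± 12.3 against 659.98 ± 2.16, SD, n = 3). These values overlapped.

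In these sums Gars and Kars (mean 271 and 146 CPM over the 6 libraries) count as cytosolic in full, although each also gives a mitochondrial enzyme. Dars and Qars enter the cytosolic sum with no mitochondrial partner among the 36. The ratio of the cytosolic to the mitochondrial sum was 7.79, 7.42 and 7.45 with RANKL and 8.13, 7.84 and 7.83 with albiflorin. It was higher in all 3 albiflorin libraries, by a narrow margin. That separation depended on the scale: the ratio overlapped per kilobase of mRNA (7.43 ± 0.223 against 7.64 ± 0.150, SD, n = 3) and by FPKM (7.51 ± 0.210 against 7.78 ± 0.150, SD, n = 3). On these 2 scales the mitochondrial sum was also higher in every albiflorin library, at 219 ± 1.36 against 212 ± 4.98 per kilobase. Without Sars the CPM ratio still separated (6.71 ± 0.134 against 6.96 ± 0.141, SD, n = 3), and without the 4 called genes it overlapped (6.54 ± 0.135 against 6.77 ± 0.155, SD, n = 3). Those 4 genes were picked by their difference between these same libraries, so no conclusion is drawn from that overlap. As a share of all counts, cytosolic synthetases took 0.498% ± 0.0139 with RANKL and 0.519% ± 0.0157 with albiflorin, which overlapped. In bulk samples like these, more cells with a high level and more RNA per cell cannot be told apart.

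**Figure D2:**
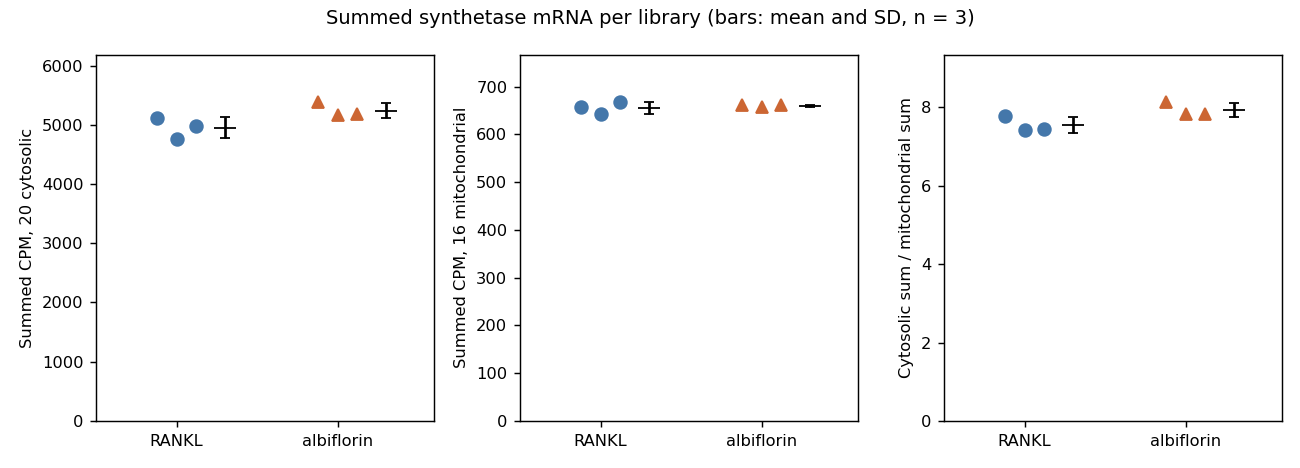
Summed CPM of the 20 cytosolic and the 16 mitochondrial synthetases, and the ratio of the sums, with 1 point per library and bars for the mean and SD of 3 libraries. The cytosolic sum and the ratio (7.42 to 7.79 with RANKL, 7.83 to 8.13 with albiflorin) do not overlap between groups, and the mitochondrial sum does.

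Of the 20 cytosolic genes, 3 rose with albiflorin (Cars, Sars and Rars) and 0 fell, and of the 16 mitochondrial genes 1 rose (Yars2) and 0 fell, by edgeR's quasi-likelihood test with Benjamini-Hochberg adjusted p under 0.05 over all genes tested. Among all 13158 genes, 12.4% were called higher and 11.4% lower, 23.8% in all, so 4 of 36 called higher (11.1%) lies near the background share. At an unadjusted p under 0.05 in edgeR, 6 cytosolic and 3 mitochondrial genes were higher and 0 were lower. The share of all genes at that unadjusted threshold was not computed, so unadjusted counts here and below have no background share. DESeq2 called 3 cytosolic and 0 mitochondrial genes higher (12.1% of all genes higher, 12% lower, 24.2% in all), limma-voom called 3 and 1 (12.2%, 11.4% and 23.6%), and each called 0 synthetases lower. The median log2 fold change, albiflorin over RANKL, was 0.09 for the cytosolic genes (range -0.13 to 0.32, 17 positive and 3 negative) and 0.03 for the mitochondrial genes (range -0.17 to 0.27, 9 positive and 7 negative). Over all tested genes it was 0.0056.

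Cars, the cysteinyl-tRNA synthetase of the cytosol, showed the largest change among the 36 (MGP_C57BL6NJ_G0033769, chromosome 7, 154229668 to 154274308, minus strand). It measured 112, 109 and 111 CPM in the RANKL libraries and 138, 149 and 129.7 CPM in the albiflorin libraries. The RANKL values lay within a few CPM of each other and all 3 albiflorin values were above them. Its log2 fold change was 0.32 ± 0.06 (SE; edgeR adjusted p = 0.00221), and it passed the threshold in 17 of 17 alternative analyses, both length corrections among them (adjusted p up to 0.0248). Its mitochondrial partner Cars2 measured 25.3, 21.3 and 21.5 CPM with RANKL and 23.3, 21.8 and 24.1 CPM with albiflorin. Those values overlapped, with a log2 fold change of 0.02 ± 0.10 (SE; edgeR adjusted p = 0.888) and a 95% interval of -0.17 to 0.22. Cars2 shares 940 bases with Carkd on the opposite strand.

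Sars, which charges the serine and selenocysteine tRNAs, lies on chromosome 3 (114081543 to 114101862, minus strand). It measured 606, 489.7 and 559 CPM with RANKL and 666, 627 and 637 CPM with albiflorin. All 3 albiflorin values exceeded all RANKL values, of which replicate 2 was the lowest by a clear margin. The log2 fold change was 0.22 ± 0.07 (SE; edgeR adjusted p = 0.0375). Sars passed in 12 of 17 alternatives, both length corrections included (adjusted p = 0.0131 and 0.0167). It did not pass when RANKL replicate 2 (0.161), its replicate 3 (0.0798) or albiflorin replicate 1 (0.162) was left out, nor on the 2 log2 FPKM scales with limma (0.095 and 0.0958). Its share of the cytosolic sum was 11.1% ± 0.794 with RANKL and 12.3% ± 0.118 with albiflorin (SD, n = 3).

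Its partner Sars2, at 13.4, 12.04 and 13.5 CPM with RANKL and 12.3, 13.2 and 11.4 CPM with albiflorin, overlapped between groups. The log2 fold change of Sars2 was -0.08 ± 0.12 (SE; edgeR adjusted p = 0.678).

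Rars, the arginyl-tRNA synthetase and an enzyme of the multi-synthetase complex (chromosome 11, 35259799 to 35285924, minus strand), measured 202, 189 and 223 CPM with RANKL and 243, 243 and 228 CPM with albiflorin. The gap between the highest RANKL and the lowest albiflorin library was small. The log2 fold change was 0.22 ± 0.07 (SE; edgeR adjusted p = 0.0278), and Rars passed in 7 of 17 alternatives. It did not pass with the trend on gene length removed (adjusted p = 0.0593) or on mRNA length removed (0.179). The call also ended without replicate 1 (0.0837) or 2 (0.121) of the RANKL group, and without replicate 1 (0.126) or 2 (0.0667) of the albiflorin group. Without RANKL replicate 2, and likewise without albiflorin replicate 1, Cars was the 1 cytosolic gene still called. Rars2 measured 37.1, 35.1 and 35.7 CPM with RANKL and 38.6, 37.6 and 38.2 CPM with albiflorin. These did not overlap, but the log2 fold change of Rars2 was 0.09 ± 0.08 (SE; edgeR adjusted p = 0.447).

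Yars2, the mitochondrial tyrosyl-tRNA synthetase, was the mitochondrial gene that rose (chromosome 16, 13574911 to 13583313, plus strand). It measured 29.7, 31.3 and 32.2 CPM with RANKL and 38.4, 40.9 and 33.1 CPM with albiflorin, where replicate 3 lay close to the RANKL values. The log2 fold change was 0.27 ± 0.09 (SE; edgeR adjusted p = 0.0405), and Yars2 passed in 5 of 17 alternatives. Its principal mRNA of 1574 bases is the shortest of the 36, and with the length trends removed the log2 fold change was 0.07 (adjusted p = 0.621, gene length) and 0.08 (0.575, mRNA length). DESeq2 gave an adjusted p of 0.062. Leaving out RANKL replicate 1 (0.123), 2 (0.0905) or 3 (0.0606), or albiflorin replicate 1 (0.143) or 2 (0.176), ended the call. The cytosolic partner Yars measured 196, 177 and 193 CPM with RANKL and 212, 209 and 192 CPM with albiflorin, which overlapped (log2 fold change 0.11 ± 0.06 SE; edgeR adjusted p = 0.217).

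**Figure D3:**
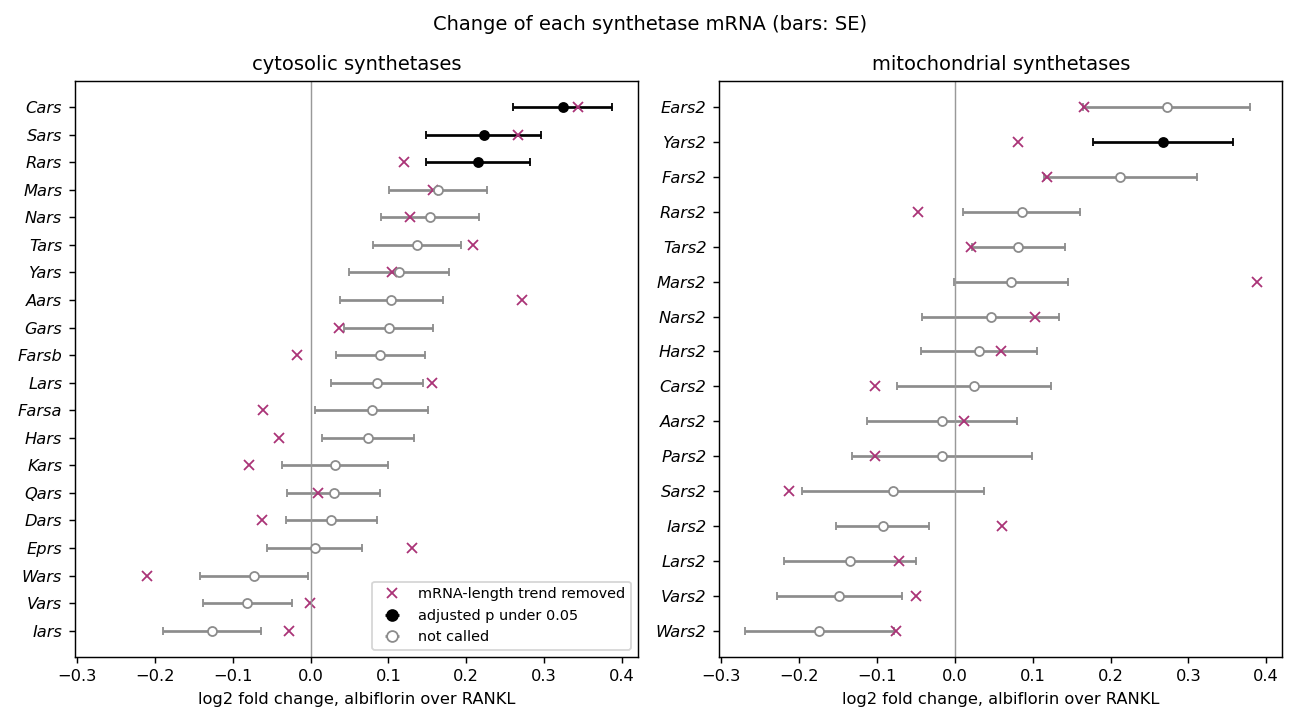
Log2 fold change of each synthetase, albiflorin over RANKL, with SE bars from edgeR (filled: adjusted p under 0.05) and crosses for the value after removal of the trend on mRNA length. The 4 filled points are Cars, Sars, Rars and Yars2, and the crosses of Rars and Yars2 lie closer to 0.

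The length corrections changed which genes passed. With the trend on gene length removed, Aars, Cars, Eprs, Sars and Yars were called higher among the cytosolic genes and Mars2 and Tars2 among the mitochondrial ones (7.18% of all genes were then higher, 7.96% lower, 15.1% in all). With the trend on mRNA length removed, Aars, Cars, Sars, Tars and Mars2 were called higher and Wars (tryptophan) lower (4.89%, 5.59% and 10.5%). Cars and Sars were thus the genes called in the uncorrected test and in each length correction. Aars, the alanine enzyme with the longest mRNA of the cytosolic group, moved from 0.10 ± 0.07 (SE; edgeR adjusted p = 0.277) to 0.26 (0.0093) and 0.27 (0.0116). Mars2 has the longest principal mRNA of the 36 (11294 bases) and moved from 0.07 ± 0.07 (SE; edgeR adjusted p = 0.514) to 0.26 (0.0264) and 0.39 (0.00818). The Spearman rho of log2 fold change and mRNA length was -0.55 across the 16 mitochondrial genes and 0.04 across the 20 cytosolic genes, both as descriptions of the same 6 libraries. The median mRNA lengths of the 2 groups were close, at 2868 and 2854.5 bases.

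Several synthetases separated the groups without passing the test, and the counts below also include Cars, Rars, Sars and Yars2, which passed. Libraries of the groups did not overlap for 9 cytosolic genes that were higher with albiflorin (Cars, Farsb, Gars, Lars, Mars, Nars, Rars, Sars and Tars) and 2 that were lower (Iars and Vars), which is 55% of the 20. For mitochondrial genes the counts were 5 higher (Ears2, Fars2, Nars2, Rars2 and Yars2) and 1 lower (Iars2), or 37.5% of the 16. Among all tested genes, 20.8% were higher and 19.3% lower without overlap, 40.1% in all. Closest to the threshold were Mars (log2 fold change 0.16, edgeR adjusted p = 0.072), Ears2 (0.27, 0.0785), Nars (0.15, 0.0917) and Tars (0.14, 0.092). Mars shares 68 bases with Ddit3 on the opposite strand, and Ears2 shares 89 with Ubfd1. Iars2 shares 2034 bases with Rab3gap2 (3370 to 4499 counts per library), and Hars shares 198 with Hars2, also on opposite strands. The sources used here do not say whether counting used strand.

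Of the 8 enzymes of the multi-synthetase complex (Eprs, Dars, Iars, Kars, Lars, Mars, Qars and Rars), 1 rose and 0 fell in edgeR and DESeq2 alike, which is 12.5% against the 12.4% of all genes called higher by edgeR, and at an unadjusted p under 0.05 the counts were 2 and 0. Their median log2 fold change was 0.03, against 0.10 for the other 12 cytosolic genes, of which 2 rose. That order did not hold with length: the medians were 0.10 for the complex and 0.05 for the others with the gene-length trend removed, and 0.06 and 0.07 with the mRNA-length trend removed. Within the complex the values ran from -0.13 for Iars (isoleucine) to 0.22 for Rars. Among the scaffold genes, Aimp1 rose from 74.9, 72.1 and 72.4 CPM to 87.9, 101 and 80.1 CPM. Its log2 fold change was 0.30 ± 0.08 (SE, edgeR adjusted p = 0.0122). With the trend on mRNA length removed, the log2 fold change of Aimp1 was 0.0082 (adjusted p = 0.955), and without albiflorin replicate 2 Aimp1 was not called. Aimp2 (0.17 ± 0.10 SE; edgeR adjusted p = 0.222) and Eef1e1 (0.18 ± 0.07 SE; edgeR adjusted p = 0.0762) did not pass.

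Genes that serve both compartments, or lack a partner among the 36, did not pass the test. Gars, whose single gene gives the glycine enzyme of the cytosol and of the mitochondrion, measured 266, 260.4 and 258 CPM with RANKL and 287, 279 and 274 CPM with albiflorin. The groups did not overlap (log2 fold change 0.10 ± 0.06 SE; edgeR adjusted p = 0.223). Kars, which likewise gives the lysine enzymes of both compartments, measured 154, 132 and 147 CPM with RANKL and 152, 149.6 and 141 CPM with albiflorin, and overlapped (0.03 ± 0.07 SE; edgeR adjusted p = 0.785). Qars, the glutamine enzyme of the cytosol, measured 169, 155 and 166 CPM with RANKL and 165, 165 and 172 CPM with albiflorin, and overlapped (0.03 ± 0.06 SE; edgeR adjusted p = 0.769). Dars, the aspartate enzyme, also has no partner among the 36 and overlapped (0.03 ± 0.06 SE; edgeR adjusted p = 0.791). Mitochondria make their glutaminyl-tRNA by amidation of a product of Ears2, through a complex of Qrsl1, Gatb and Gatc. In the list of 12 tested genes for such mitochondrial charging partners and translation factors, edgeR, DESeq2 and limma-voom each called 0 higher and 0 lower, with 3 higher and 0 lower at an unadjusted edgeR p under 0.05. Without albiflorin replicate 3, edgeR called 3 of these higher, in a fit that called 1753 of all genes higher.

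The balance between compartments was compared amino acid by amino acid, as the log2 ratio of cytosolic to mitochondrial CPM in each library. The groups did not overlap for 2 of 17 pairs. The mean log2 ratio of Sars to Sars2 differed by 0.31 ± 0.12, albiflorin minus RANKL (SD of the albiflorin libraries; SD 0.08 with RANKL, n = 3), and that of Cars to Cars2 by 0.30 ± 0.17 (SD of the albiflorin libraries; SD 0.13 with RANKL, n = 3). By a two-sided exact permutation test each had p = 0.1, the smallest that 3 against 3 allows, and 0.425 after Benjamini-Hochberg adjustment over the 17 pairs, so no pair passed. The other 15 pairs overlapped, from -0.27 for Eprs over Ears2 to 0.23 for Lars over Lars2. The 2 genes of a pair changed in the same direction in 13 pairs and in opposite directions in 4, by fold changes that mostly did not pass the test. Eprs enters 2 pairs and Fars2 is the partner of both Farsa and Farsb, the subunits of the phenylalanine enzyme, so the 17 are not independent.

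**Figure D4:**
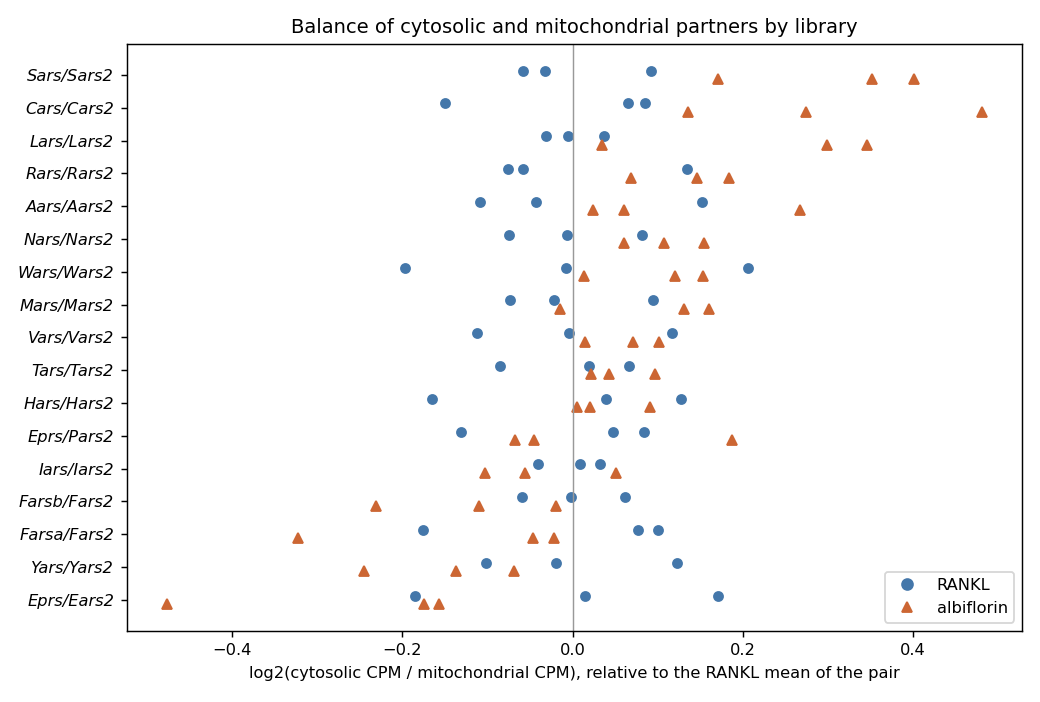
Log2 ratio of cytosolic to mitochondrial CPM for 17 pairs, 1 point per library, relative to the RANKL mean of each pair (circles RANKL, triangles albiflorin). Points of the groups separate for Sars/Sars2 and Cars/Cars2 and overlap for the other 15 pairs.

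None of the 5 genes whose promoters hold the response element core passed the uncorrected test. Their log2 fold changes were 0.10 for Aars, 0.10 for Gars, -0.13 for Iars, 0.14 for Tars and 0.11 for Yars. With the trend on gene length removed, Aars and Yars passed (edgeR adjusted p = 0.0093 and 0.0458). With the trend on mRNA length removed, Aars and Tars passed (edgeR adjusted p = 0.0116 and 0.0123). Gars and Iars passed in neither. In the uncorrected test Sars and Yars2 rose and have windows with no match to the core. No window was found for Cars or Rars. The core itself says nothing here of whether ATF4 was bound.

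Several genes that respond to ATF4 and to amino acid shortage were higher with albiflorin. Of 28 tested genes in this list, 11 rose (39.3%) and 2 fell (7.14%) by edgeR, with a median log2 fold change of 0.16. Among all tested genes, edgeR called 12.4% higher and 11.4% lower at adjusted p under 0.05. These shares are the background for edgeR's adjusted calls in this list and in each related list below. The smallest p among the rises were those of Ppp1r15a, a subunit of the eIF2 phosphatase, at 0.81 ± 0.11, Nupr1, a stress-induced nuclear protein, at 0.56 ± 0.08, and Psph, an enzyme of serine synthesis, at 0.59 ± 0.09 (log2 fold change ± SE; edgeR adjusted p = 0.000284, 0.000388 and 0.000434). Atf4 itself measured 224, 221 and 224 CPM with RANKL and 287, 281 and 279 CPM with albiflorin, which did not overlap (log2 fold change 0.34 ± 0.06 SE; edgeR adjusted p = 0.000794). Asns, the asparagine synthetase and a common readout of this response, measured 161, 167 and 149.9 CPM with RANKL and 206, 198 and 186 CPM with albiflorin, again without overlap (0.30 ± 0.06 SE; edgeR adjusted p = 0.00341). The 2 that fell are the amino acid transporters Slc7a1 (-0.30 ± 0.07 SE; edgeR adjusted p = 0.00713) and Slc7a5 (-0.22 ± 0.08 SE; edgeR adjusted p = 0.0433). Slc7a5 overlapped between groups and kept its call in 1 of the 6 fits that left out a library. With the trend on gene or mRNA length removed, edgeR gave adjusted p = 0.233 and 0.381 for Slc7a1, and 0.0302 and 0.0879 for Slc7a5. Ddit3, another target, did not pass (0.12 ± 0.12 SE; edgeR adjusted p = 0.54).

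These counts depended on length and on single libraries. With the trend on gene length removed 6 rose and 1 fell (7.18% and 7.96% of all genes), and with the trend on mRNA length removed 7 rose and 0 fell (4.89% and 5.59% of all genes). Ppp1r15a and Psph passed in each, whereas Nupr1 was at 0.19 in the latter and did not pass (adjusted p = 0.115). Atf4 then had adjusted p = 0.0708 and 0.0245, and Asns 0.0218 and 0.0461. Without albiflorin replicate 1 the list had 6 that rose, and without RANKL replicate 2 it had 7.

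Of the 6 tested kinases of eIF2 and regulators of GCN2, 0 rose and 4 fell, against 11.4% of all tested genes called lower. Gcn1l1, which GCN2 needs to sense uncharged tRNA, fell by 0.38 ± 0.07 on the log2 scale (SE; edgeR adjusted p = 0.00108). GCN2 itself (Eif2ak4) measured 77.5, 80.2 and 74.3 CPM with RANKL and 63.8, 61.8 and 68.4 CPM with albiflorin, all lower, with a log2 fold change of -0.26 ± 0.07 (SE; edgeR adjusted p = 0.0109). Eif2ak2 fell by 0.26 ± 0.07 (SE; edgeR adjusted p = 0.0183) and Eif2ak1 fell by 0.18 ± 0.06 (SE; edgeR adjusted p = 0.049). DESeq2 called 3 of them. With the length trends removed, 1 (Eif2ak2, gene length) and 0 (mRNA length) fell, against 7.96% and 5.59% of all genes. The count of falls was 2 when RANKL replicate 2, or replicate 1 or 2 of the albiflorin group, was left out.

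**Figure D5:**
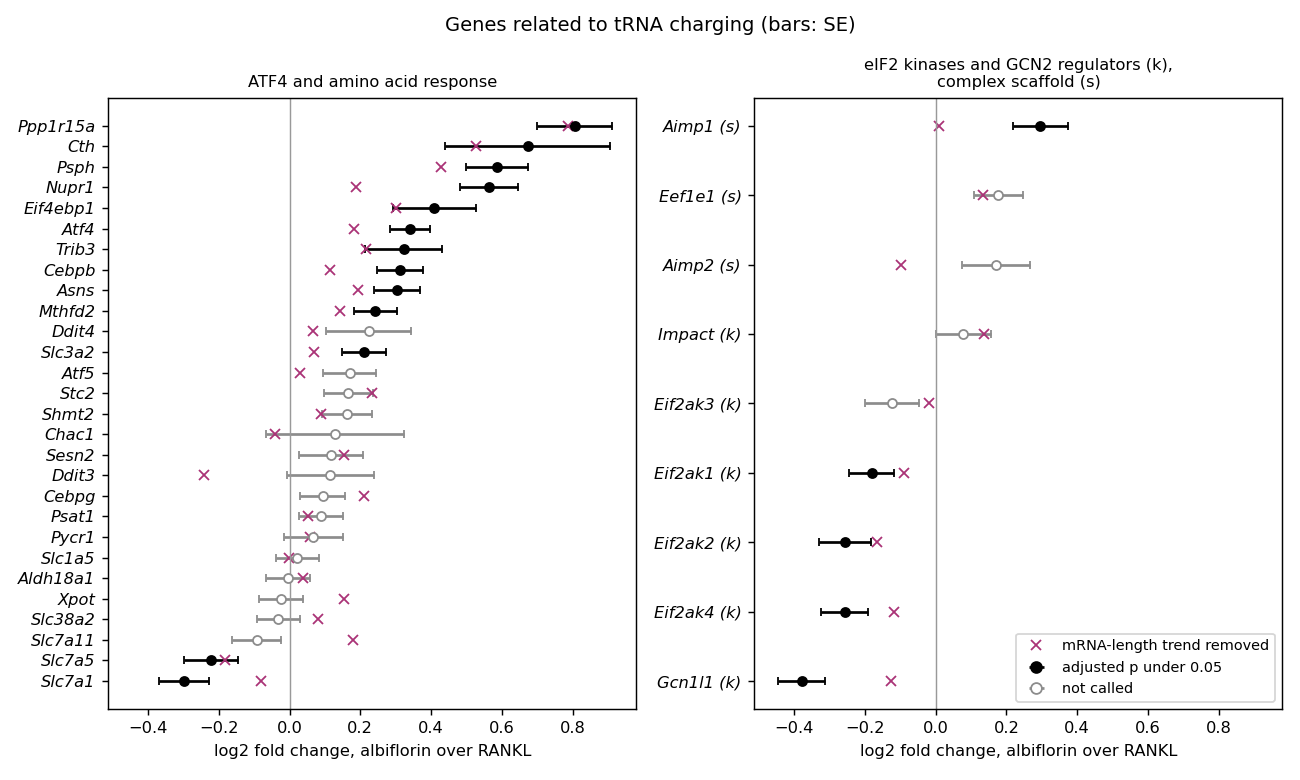
Log2 fold change, albiflorin over RANKL, of genes of the amino acid response and of the eIF2 kinases and complex scaffold, with SE bars (filled: edgeR adjusted p under 0.05) and crosses for the value after removal of the trend on mRNA length. Atf4 and Asns lie at 0.34 and 0.30, Gcn1l1 and Eif2ak4 at -0.38 and -0.26, and most crosses lie nearer to 0.

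Other genes around tRNA moved unevenly. In tRNA processing, export and CCA addition 8 of 20 tested genes rose and 0 fell, among them the mitochondrial RNase P subunit Hsd17b10 (0.40 ± 0.08), the RNase P subunits Rpp21 (0.56 ± 0.13) and Pop5 (0.37 ± 0.10) and the splicing endonuclease subunit Tsen15 (0.30 ± 0.09; log2 fold change ± SE). DESeq2 called 5 higher and 0 lower, and at an unadjusted edgeR p under 0.05 the counts were 10 higher and 0 lower. With the length trends removed the count of rises was 2 (gene length) and 1 (mRNA length) of 20, against 7.18% and 4.89% of all genes. Without single libraries the count of rises ran from 2 (albiflorin replicate 1) to 8. It was 3 without RANKL replicate 2, 3 without albiflorin replicate 2 and 4 without RANKL replicate 1. Of 7 genes for proofreading and peptidyl-tRNA hydrolysis 2 rose (Prorsd1, 0.33 ± 0.10, and Dtd1, 0.27 ± 0.09), and 0 did so with either length trend removed or without RANKL replicate 2 or albiflorin replicate 2. Of 13 genes listed for tRNA modification 1 rose (7.69%), Yrdc (0.38 ± 0.09). Yrdc did not pass in edgeR with the trend on gene length (0.22, adjusted p = 0.108) or mRNA length (0.21, 0.152) removed.

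Of 6 genes listed for elongation in the cytosol, Eef1b2 (0.39 ± 0.07) and Eef1d (0.34 ± 0.07) rose and Eef2 fell (-0.25 ± 0.08, log2 fold change ± SE). The others, Eef1g, Eef2k and Eif5a, did not pass. Eef1b2 and Eef1d also passed with each length trend removed. The call on Eef2 was lost when replicate 1 of either group or albiflorin replicate 2 was left out. In the list for Myc and growth control, 2 of 12 rose, Npm1 (0.26 ± 0.07) and Ldha (0.24 ± 0.06), and 2 fell, the Myc antagonists Mnt (-0.60 ± 0.13) and Mxd4 (-0.32 ± 0.10). With the gene-length trend removed 3 of the list rose (Npm1, Ldha and Ncl) and 1 fell (Mnt), against 7.18% higher and 7.96% lower among all genes. With the mRNA-length trend removed 1 rose (Ncl) and 1 fell (Mnt), against 4.89% higher and 5.59% lower.

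The precision of these values differed between compartments. Counts per library ran from 979 to 10103 for cytosolic and from 162 to 2032 for mitochondrial genes, and the median SE of the log2 fold change was 0.063 and 0.089. The median coefficient of variation between replicates was 3.87% and 4.78% with RANKL and 3.62% and 3.04% with albiflorin.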

How the data were processed

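The raw counts per gene deposited by the authors were the basis of the tests, and the FPKM values deposited by the authors served as an alternative scale. Per the submitters' processing notes, CASAVA 1.8, DESeq2 1.42.0, fastp, featureCounts 2.0.6-p3 and HISAT2 2.2.1 were used, with no role stated. The sources used here name neither the genome build nor the use of strand. Gene identifiers carry Ensembl's C57BL/6NJ prefix, and gene coordinates are those of the table.

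Counts were tested with edgeR 4.0.16 in R 4.3.3 (filterByExpr, TMM, quasi-likelihood F-test on group, Benjamini-Hochberg adjusted p under 0.05). Each SE was taken as the size of the log2 fold change over the root of its F statistic, and 95% intervals are 1.96 SE. CPM uses TMM-scaled library sizes. Principal mRNA lengths came from GENCODE M21, matched by symbol for 10469 of 13158 tested genes (79.6%) and for all 36 synthetases. The 17 alternatives were RLE scaling, DESeq2, limma-voom (limma 3.58.1), no filter, a filter at 1 CPM, a replicate block with and without removal of the gene-length trend, limma on log2(FPKM + 1) and log2(FPKM + 0.1), removal of a lowess trend (span 0.3) on gene or mRNA length, and leaving out each of 6 libraries. The tests were tried on simulated data.

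The synthetases and the related gene lists were chosen with earlier results of these data known. Values per library are given for called synthetases, their partners, Gars, Kars and Qars. The called genes of lowest p (at most 4) were named from each related list, with the scaffold genes, Atf4, Asns and Eif2ak4 whatever their result. Other genes were named after their values were seen. Promoter windows are RefSeq's for GRCm38.p6, and Mars was matched by a synonym.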

Additional observations from a re-analysis of the deposited data

How the results depend on the processing

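With the length trends removed, 945 (gene length) and 644 (mRNA length) genes were called higher, and 735 were called lower with the mRNA-length trend removed, against 1631 and 1496 in the main test. On log2(FPKM + 1) and log2(FPKM + 0.1), 877 and 858 were lower. Leaving out each library gave 984 to 1753 higher and 914 to 1644 lower. Cytosolic synthetases called higher numbered 3 in the main test, 1 on each FPKM scale, 5 with the gene-length trend removed and 1 to 3 with a library left out, and 1 was lower with the mRNA-length trend removed. Mitochondrial synthetases called higher numbered 1 in the main test, 0 with DESeq2 and on each FPKM scale, 2 with the gene-length trend removed and 0 to 1 with a library left out. The mitochondrial median of 0.028 became -0.0025 with the gene-length trend removed and ran from -0.0067 to 0.043 with a library left out. RLE scaling and no filter moved no count by over 1.5 times.

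Directions turned in genes that were not called. With the mRNA-length trend removed the log2 fold changes were -0.062 (Dars), -0.061 (Farsa), -0.017 (Farsb), -0.041 (Hars), -0.079 (Kars), 0.012 (Aars2), -0.10 (Cars2), 0.061 (Iars2) and -0.047 (Rars2). With the gene-length trend removed they were -0.0065 (Farsb), -0.087 (Hars), -0.098 (Kars), -0.15 (Cars2), -0.0085 (Fars2) and 0.061 (Iars2). Eprs was at -0.00081 with RLE scaling and -0.0062 with no filter. With a library left out, values ran from -0.0051 to 0.046 (Dars), -0.020 to 0.030 (Eprs), -0.030 to 0.081 (Kars), -0.0053 to 0.055 (Qars), -0.051 to 0.032 (Aars2), -0.017 to 0.11 (Cars2), -0.012 to 0.10 (Hars2) and -0.086 to 0.041 (Pars2). Of 612 values for single synthetases over all alternatives, 536 kept their direction and their side of the threshold. The cause of these shifts was not tested.

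No pairing by replicate number was seen: deviations of same-numbered libraries correlated at 0.104, -0.126 and -0.212 over 9616 genes. For differently numbered libraries the correlations between groups ran from -0.111 to 0.223. With 3 libraries per group, these values cannot decide whether the samples were paired. With the replicate block, 1358 genes were higher and 1214 lower, 2 cytosolic synthetases were higher and 0 mitochondrial ones. With the replicate block and the gene-length trend removed together, 813 were higher and 887 lower, the mitochondrial median was -0.0040, and Farsb was at -0.0066, Hars at -0.087, Kars at -0.098, Cars2 at -0.15, Fars2 at -0.011 and Iars2 at 0.062. Under the block Rars (adjusted p = 0.0516) and Yars2 (0.0604) lost their call. The largest SEs lay among the mitochondrial genes: Pars2 and Sars2 have SEs of 0.12, and Ears2, with a log2 fold change of 0.27 and an SE of 0.11, did not pass.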
